A study of Mus musculus with 6 samples.

Results

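The mitochondrial ribosomal protein genes were followed through the culture of interleukin-17-producing γδ T cells. All genes whose symbol begins with Mrpl or Mrps and a digit were taken, and symbols of pseudogenes were dropped. This gave 78 genes of the 26771 listed in any library, 49 named for the large subunit (Mrpl) and 29 named for the small subunit (Mrps). All 78 were listed in each of the 6 libraries and all passed the filter on low values, so no member rests on a value of 0. The series measured messenger RNA in cells from spleens of C57BL/6 TCRβ-/- mice, which lack the T cell receptor β chain in both groups. The Initial group held γδT17 cells sorted from splenocytes before culture (3 libraries, from mice A, B and C). The Induced group held cells grown from splenocytes with IL-1β and IL-23, taken off at day 8 and purified with the Pan T Cell Isolation kit II (3 libraries, from mice A, B and C). The labels state that most Induced cells expressed IL-17A. The sort gate and the age and sex of the mice are not stated in the labels, and every library of a group had the same preparation, so culture and handling cannot be told apart.

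Mitochondrial ribosomes translate the few messenger RNAs of the mitochondrial genome, all of them for core subunits of the respiratory chain and ATP synthase. Their RNAs are made in the organelle, but every ribosomal protein is encoded in the nucleus, made on cytosolic ribosomes and imported. Some of these proteins have bacterial homologues and others occur in mitochondria alone, and gene names do not always match position: the proteins of Mrps18a and Mrps30 sit in the large subunit, and that of Mrps36 was later assigned to the 2-oxoglutarate dehydrogenase complex.

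The deposited values were FPKM, which set fragments against transcript length and the depth of the library, with depth estimated at 20400000 to 25200000 fragments per library. The γδ T cell label was checked with Cd3d, Cd3e, Cd3g, Cd247 and Trdc. Their summed level was 1560 to 1700 FPKM in Initial and 1380 to 1500 FPKM in Induced libraries. Of these genes, Cd3d and Cd3e fell (log2 fold changes -0.47 and -0.53, limma adjusted p = 0.0113 and 0.000118). Cd3g, Cd247 and Trdc did not pass the test (-0.07, -0.1 and 0.03). Of 20 T cell identity genes, which include these, 12 fell and 2 rose, with a median of -0.53. Cd28, Cd6 and Cd2 fell most (-3.22, -2.49 and -2.16). Il17a was listed at 15.3, 7.34 and 8.66 FPKM in Initial A, B and C and at 17.5, 22.5 and 7.64 FPKM in Induced A, B and C. Markers of other spleen cells moved with the groups. The 7 B cell markers summed to 1640 to 1920 FPKM in Initial and 70.2 to 118 FPKM in Induced libraries, the 7 macrophage markers to 440 to 780 and 1.63 to 4.35 FPKM, and the 5 red cell markers to 1210 to 1740 and 1.14 to 1.63 FPKM. Each of these 19 genes was lower in every Induced than in every Initial library, and Alas2 was listed in no Induced library. The 5 neutrophil markers summed to 0 to 5.87 and 0.553 to 2.85 FPKM. In bulk samples, fewer cells of a type and less RNA per cell cannot be told apart, and the part of these cells in the changes below was not tested.

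Most genes of both subunits were higher after culture, by a modest amount. The summed level of the 49 Mrpl genes was 1190, 1126 and 1346 FPKM in Initial A, B and C and 1588, 1547 and 1694 FPKM in Induced A, B and C. The 29 Mrps genes summed to 682, 650 and 791 FPKM in the Initial and 918, 907 and 997 FPKM in the Induced libraries. Each Induced library lay above each Initial library in both sums. The group means went from 1220 ± 113 to 1610 ± 75.9 FPKM for Mrpl and from 708 ± 73.9 to 941 ± 49.1 FPKM for Mrps (SD, n = 3), ratios of 1.32 and 1.33. Together the 78 genes made up 0.424, 0.411 and 0.466% of all FPKM in Initial and 0.562, 0.550 and 0.593% in Induced A, B and C.

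By limma on log2(FPKM + 1), with Benjamini-Hochberg adjustment over all 11265 genes tested, 50 of the 78 genes rose, 3 fell and 25 did not pass an adjusted p of 0.05. Across all tested genes 37.3% rose and 33.1% fell, 70.4% in either direction. Of the members 64.1% rose and 3.85% fell, so the members stood above the background in rises and below it in falls. Libraries of the groups did not overlap for 51 members that were higher in Induced and 4 that were lower, against 40.0% and 35.4% of all tested genes. The median log2 fold change was 0.38 over the members and 0.03 over all tested genes. Changes of at least 2-fold were called for 3 members, Mrps16, Mrpl18 and Mrpl53, where 25.2% of tested genes had a call of that size. The direction was alike in the mice: 64, 67 and 64 of the 78 genes were higher in the Induced library of mice A, B and C than in the Initial library of the same mouse. With any 1 library left out, 44 to 53 members rose, where 33.8 to 36.4% of all tested genes did. Of the 50, 43 rose in each of those fits.

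**Figure D1:**
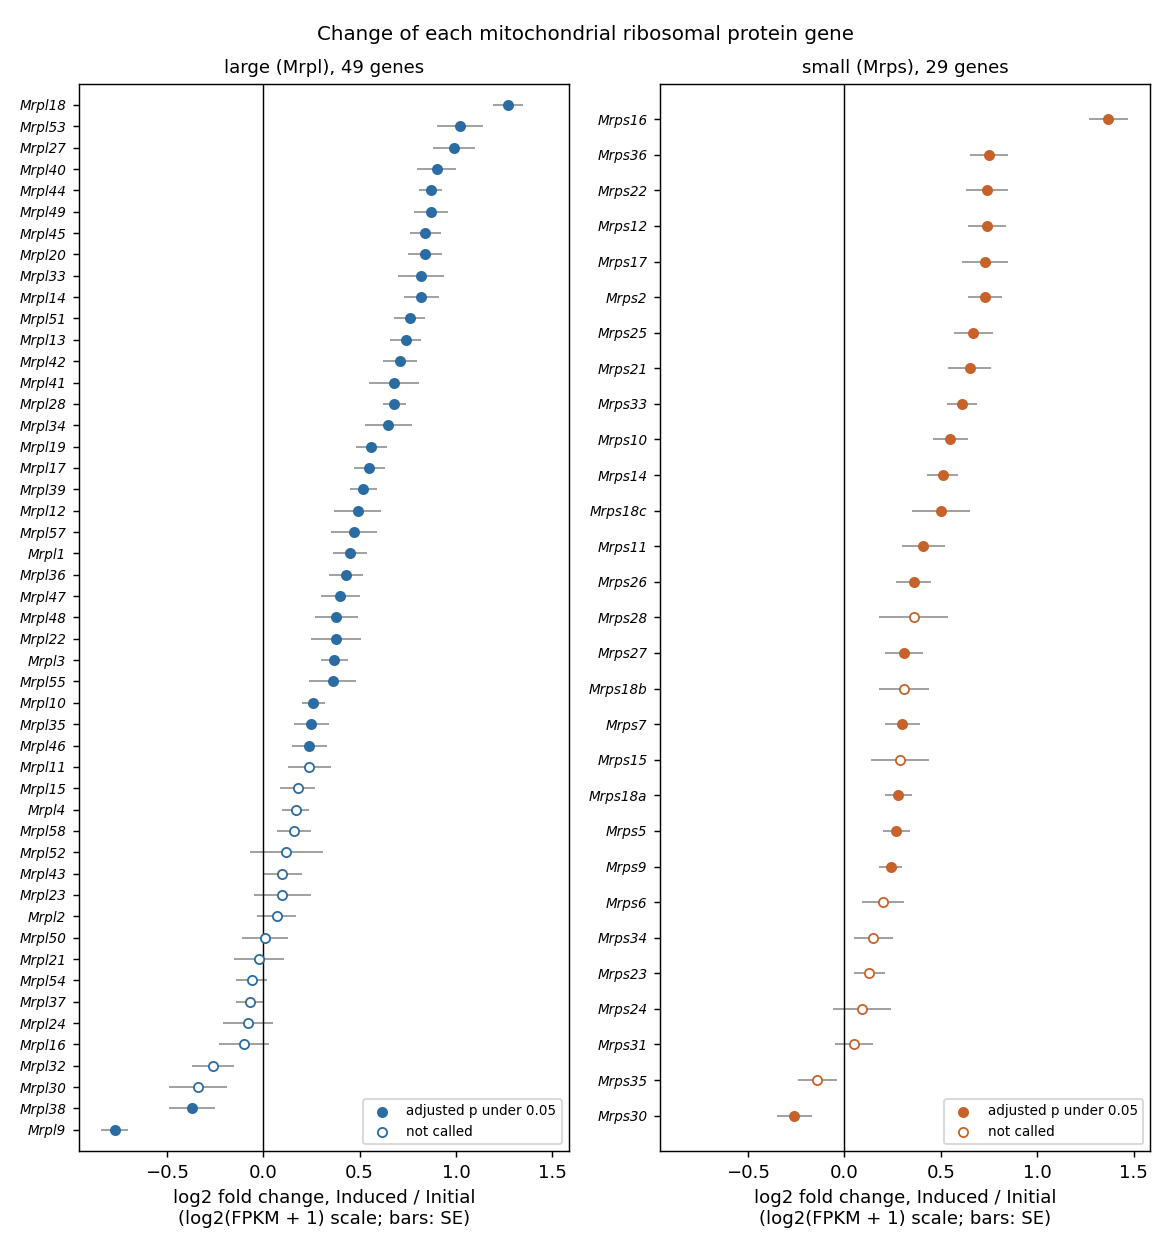
Log2 fold change of each of the 78 genes, Induced over Initial, on the log2(FPKM + 1) scale (x axis), with Mrpl genes on the left and Mrps genes on the right. Points are estimates from limma, bars are standard errors, and filled points have an adjusted p under 0.05. Most points lie to the right of 0, with Mrps16 at 1.37 and Mrpl18 at 1.27 farthest right and Mrpl9 at -0.77 farthest left.

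The subunits were then set against each other. Of the 49 Mrpl genes 31 (63.3%) rose, 2 (4.08%) fell and 16 did not pass the test. Of the 29 Mrps genes 19 (65.5%) rose, 1 (3.45%) fell and 9 did not pass. Across all tested genes 37.3% rose and 33.1% fell. The median log2 fold change was 0.38 for Mrpl (quartiles 0.10 and 0.71) and 0.36 for Mrps (quartiles 0.24 and 0.65). Paired by mouse, it was 0.48, 0.44 and 0.34 for Mrpl and 0.34, 0.41 and 0.35 for Mrps in mice A, B and C, so Mrpl was above Mrps in mice A and B and just below it in mouse C. Values below 0 occurred for 9 Mrpl and 2 Mrps genes. The ratio of summed Mrps to summed Mrpl FPKM was 0.573, 0.577 and 0.588 in Initial and 0.578, 0.586 and 0.588 in Induced A, B and C, and the groups overlapped. No difference between the subunits by gene name was seen beyond the spread of the libraries.

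When the Mrpl and Mrps genes were assigned by the position of the protein, their ratio separated the groups by a narrow gap. With Mrps18a and Mrps30 counted in the large subunit and Mrps36 left out, 51 large and 26 small subunit genes remained. The small to large ratio of summed FPKM was then 0.461, 0.463 and 0.478 in Initial and 0.482, 0.490 and 0.497 in Induced A, B and C. Its mean went from 0.467 ± 0.00915 to 0.490 ± 0.00735 (SD, n = 3), with no overlap, though Induced A lay only just above Initial C. Most of this separation came with Mrps30: moving that gene alone gave ratios of 0.511 to 0.528 in Initial and 0.537 to 0.550 in Induced libraries. Moving Mrps18a alone gave 0.536 to 0.553 and 0.542 to 0.556, and removing Mrps36 alone gave 0.556 to 0.569 and 0.557 to 0.565, both with overlap. By position 32 large subunit genes (62.7%) rose and 3 (5.88%) fell, and 17 small subunit genes (65.4%) rose and 0 fell. Across all tested genes 37.3% rose and 33.1% fell. Subunits with other names (Dap3, Chchd1, Ptcd3, Aurkaip1 and Gadd45gip1) are not in these sums. Induced A and Initial C lie so close that adding them could close the gap. The separation therefore holds only for genes with Mrpl and Mrps names. The ratios are descriptions and carry no test.

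**Figure D2:**
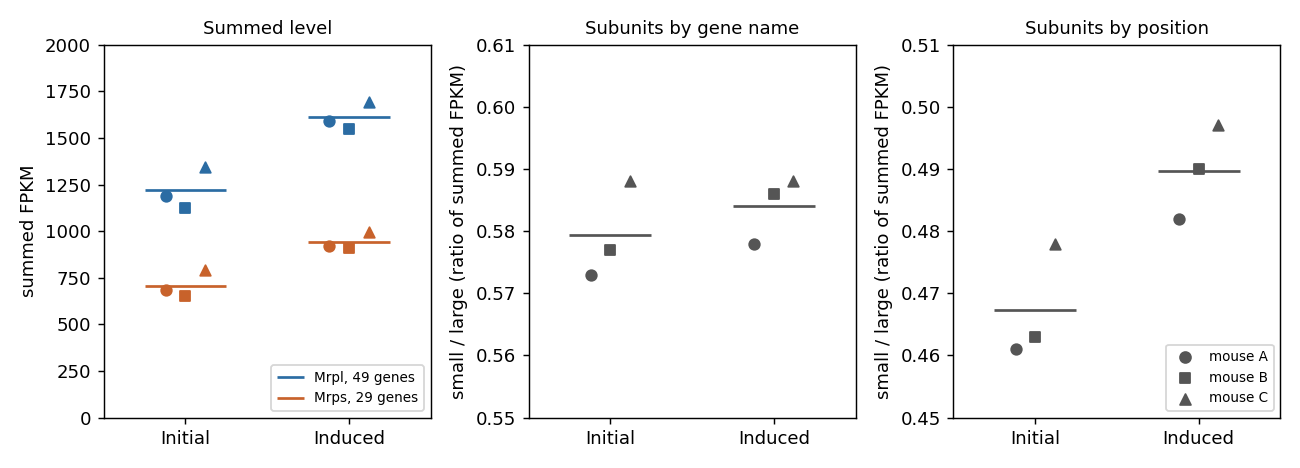
Summed FPKM of the 49 Mrpl and 29 Mrps genes per library (left), and the ratio of small to large subunit sums with genes assigned by name (middle) or by position of the protein (right). Symbols are mice and lines are group means, and the ratio axes do not start at 0. Subunits without an Mrpl or Mrps name are not in the sums. Both sums are higher in all 3 Induced libraries, while the ratio overlaps by name. By position, over these genes alone, a narrow gap parts 0.461 to 0.478 in Initial from 0.482 to 0.497 in Induced libraries.

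The largest rise was in the small subunit. Mrps16 (ENSMUSG00000049960, chromosome 14, 20389304 to 20393634, minus strand, GRCm38) encodes a homologue of a bacterial small subunit protein and is mutated in a human disorder of oxidative phosphorylation. It was at 15.2, 14.8 and 16.3 FPKM in Initial and 37.7, 39.0 and 48.5 FPKM in Induced A, B and C, with a wide gap between the groups. Its log2 fold change was 1.37 (SE 0.10, limma adjusted p = 1.08e-05). In the large subunit Mrpl18 (ENSMUSG00000057388, chromosome 17, 12911349 to 12916345, minus strand) changed most. Its protein belongs to the central protuberance of the large subunit. It was at 50.5, 46.5 and 56.9 FPKM in Initial and 119, 126 and 128 FPKM in Induced A, B and C, and the groups lay far apart. The log2 fold change was 1.27 (SE 0.08, adjusted p = 5.18e-06). Mrpl18 shares exon sequence on the opposite strand with the chaperonin gene Tcp1, which went from 129 ± 10 to 221 ± 7.62 FPKM. Whether fragments were counted by strand is not stated in the labels, so the values of such overlapping genes are uncertain.

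The deepest fall was in the large subunit. Mrpl9 (ENSMUSG00000028140, chromosome 3, 94443318 to 94451130, plus strand) encodes a homologue of a bacterial large subunit protein. It was at 64.2, 57.7 and 66.1 FPKM in Initial and 36.0, 37.4 and 35.7 FPKM in Induced A, B and C, and every Induced library lay below every Initial one. Of the 78 genes it had the highest mean in the Initial group, 62.7 ± 4.37 FPKM, and went to 36.4 ± 0.867 FPKM. Its log2 fold change was -0.77 (SE 0.07, limma adjusted p = 3.1e-05). No expressed gene shared its exons. Mrpl38 (ENSMUSG00000020775, chromosome 11, 116131817 to 116138868, minus strand), for another protein of the central protuberance, was at 24.1, 23 and 25.3 FPKM in Initial and 17.3, 16.1 and 22.6 FPKM in Induced A, B and C. Induced C lay close below the Initial libraries, and the log2 fold change was -0.37 (SE 0.12, adjusted p = 0.0258). Its call was lost without Initial A, Initial C, Induced A or Induced B (adjusted p = 0.0651, 0.0762, 0.0859 and 0.086).

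Mrps30 (ENSMUSG00000021731, chromosome 13, 118378381 to 118387252, minus strand), a small subunit gene by name with a protein in the large subunit, was the third gene that fell. It was at 48.8, 43.3 and 53.0 FPKM in Initial and 42.6, 36.5 and 41.4 FPKM in Induced A, B and C. The groups came within 1 FPKM of each other, and the log2 fold change was -0.26 (SE 0.09, limma adjusted p = 0.0375). The call was lost without Initial A, Initial C or Induced B (adjusted p = 0.0941, 0.114 and 0.128). It was also lost without a filter (adjusted p = 0.0809), with ordinary moderation (adjusted p = 0.0557) and with scaling to the CD3 chains and Trdc (-0.04, adjusted p = 0.702). Mrpl38 lost its call without a filter (adjusted p = 0.0629) and with that scaling (-0.15, adjusted p = 0.3). When libraries were scaled to T cell identity genes, Mrpl38 turned to 0.21 (adjusted p = 0.0718), and Mrps30 turned to 0.33 and was called higher (adjusted p = 0.00806). Mrpl9 was then at -0.18 and lost its call (adjusted p = 0.121). That scaling raised the median of all tested genes to 0.57, and all 3 genes stayed below that median. Of the genes that fell, Mrpl9 alone fell in each fit with 1 library left out.

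Promoters are shown for the called genes with the largest rise and the largest fall within Mrpl and within Mrps, since the data bear on their transcript levels. Mrpl38, which fell more than Mrps30, had no promoter entry. Each runs from 250 bases before to 50 bases after the gene start of RefSeq (GRCm38.p6, 5′ to 3′ on the gene's strand). For Mrps16, Mrpl18 and Mrpl9 that start lies inside the gene span given above, which is from another annotation. The whole Mrpl18 window lies within that span. Capitals mark matches, on either strand, to CCGGAAG (a motif of ETS factors such as GABP), GCGCNNGCGC (NRF1), GGGCGG (SP1), AAGATGG (YY1), CACGTG (the E-box) or TATAAA, as found in some core promoters. They lie at chr14:20393441-20393740 (Mrps16, minus strand), chr17:12916042-12916341 (Mrpl18, minus strand), chr3:94443086-94443385 (Mrpl9, plus strand) and chr13:118387203-118387502 (Mrps30, minus strand).
Mrps16: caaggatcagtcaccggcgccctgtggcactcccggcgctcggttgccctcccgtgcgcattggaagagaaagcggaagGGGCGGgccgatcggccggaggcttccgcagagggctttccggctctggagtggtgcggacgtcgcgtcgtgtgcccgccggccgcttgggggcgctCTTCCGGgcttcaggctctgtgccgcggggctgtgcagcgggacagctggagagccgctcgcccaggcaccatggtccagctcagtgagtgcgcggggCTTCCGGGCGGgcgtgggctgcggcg
Mrpl18: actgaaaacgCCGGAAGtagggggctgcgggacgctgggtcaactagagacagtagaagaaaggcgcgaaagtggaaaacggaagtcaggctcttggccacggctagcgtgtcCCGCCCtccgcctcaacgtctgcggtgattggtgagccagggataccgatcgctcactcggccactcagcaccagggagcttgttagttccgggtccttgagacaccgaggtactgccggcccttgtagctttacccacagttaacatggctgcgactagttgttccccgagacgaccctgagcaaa
Mrpl9: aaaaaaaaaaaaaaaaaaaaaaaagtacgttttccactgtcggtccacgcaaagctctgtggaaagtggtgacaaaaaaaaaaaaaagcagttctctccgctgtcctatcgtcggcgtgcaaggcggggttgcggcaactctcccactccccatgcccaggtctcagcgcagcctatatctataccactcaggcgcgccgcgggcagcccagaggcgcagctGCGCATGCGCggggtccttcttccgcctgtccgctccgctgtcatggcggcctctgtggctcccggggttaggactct
Mrps30: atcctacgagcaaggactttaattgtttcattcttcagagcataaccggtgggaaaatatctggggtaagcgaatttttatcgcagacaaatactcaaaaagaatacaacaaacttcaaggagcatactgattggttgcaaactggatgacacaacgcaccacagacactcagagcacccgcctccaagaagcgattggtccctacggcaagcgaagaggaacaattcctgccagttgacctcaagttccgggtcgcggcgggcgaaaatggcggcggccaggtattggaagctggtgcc
The Mrps16 window held 4 matches, 2 to CCGGAAG and 2 to GGGCGG, of which the pair after the RefSeq start overlaps. The Mrpl18 window held 1 match to each of these motifs, the Mrpl9 window 1 match to GCGCNNGCGC, and the Mrps30 window no match to any of the 6.

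Promoters were found for 69 of the 78 genes. The motif CCGGAAG occurred in 25 of them, or 36.2%, where it occurred in 9.12% of all 27025 promoters in the table and in 20.4% of the 8351 promoters of tested genes. GCGCNNGCGC occurred in 20.3% of members, 6.43% of all and 14.8% of tested genes. AAGATGG occurred in 18.8, 6.48 and 7.84% of these. GGGCGG was less frequent in members than in tested genes (49.3 against 65.2%), with 35.9% in all promoters. CACGTG occurred in 7.25% of members, 7.24% of all and 10.6% of tested genes, and TATAAA in 5.80, 14.2 and 6.80%. By subunit, CCGGAAG was in 14 of 43 Mrpl and 11 of 26 Mrps promoters, and GCGCNNGCGC in 11 of 43 and 3 of 26. Among genes that rose, 19 of 48 held CCGGAAG, and among the other members 6 of 21. Base composition differed too, with a median GC content of 58.3% in members, 52.7% in all promoters and 60.7% in those of tested genes. A match describes letters in the window and not binding.

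Beyond Mrpl18, the large subunit genes that rose most belonged to several parts of the particle. Mrpl53 (ENSMUSG00000030037, chromosome 6, 83109040 to 83109939), for a mitochondrion-specific protein, was at 7.56, 8.46 and 10.1 FPKM in Initial and 18.6, 20.2 and 16.9 FPKM in Induced A, B and C. The groups were well separated, with a log2 fold change of 1.02 (SE 0.12, limma adjusted p = 0.000104). With an estimated 122 fragments in its lowest library, it was the member with the fewest, and the predicted gene Gm42688 shares its exons on the same strand. Mrpl27 (ENSMUSG00000024414, chromosome 11, 94653767 to 94660089), whose bacterial homologue reaches towards the peptidyl transferase centre, was at 22.3, 18.5 and 25.3 FPKM in Initial and 43.3, 44.5 and 45.7 FPKM in Induced A, B and C. All Induced values lay close together above the Initial ones, and the log2 fold change was 0.99 (SE 0.11, adjusted p = 7.97e-05). Its exons overlap on the other strand with Eme1, a DNA repair gene that went from 1.04 ± 0.321 to 15.9 ± 0.935 FPKM.

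Mrpl40 (ENSMUSG00000022706, chromosome 16, 18872018 to 18876862), another central protuberance gene and one with no overlapping expressed gene, was at 29, 25.5 and 32.6 FPKM in Initial and 55.3, 50.3 and 59.2 FPKM in Induced A, B and C. The rise was of like size in each mouse (0.84 to 0.95 on the log2 scale). Mrpl49 (ENSMUSG00000007338, chromosome 19, 6053622 to 6057785), for a mitochondrion-specific protein, was at 15, 14.4 and 16.5 FPKM in Initial and 31.7, 27.3 and 27.6 FPKM in Induced A, B and C. Both genes rose without overlap of the groups, by 0.90 (SE 0.10, limma adjusted p = 0.000102) and 0.87 (SE 0.09, adjusted p = 5.01e-05). Mrpl49 overlaps the ubiquitin ligase gene Syvn1 on the other strand, which went from 17.4 ± 0.358 to 14.8 ± 0.973 FPKM.

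**Figure D3:**
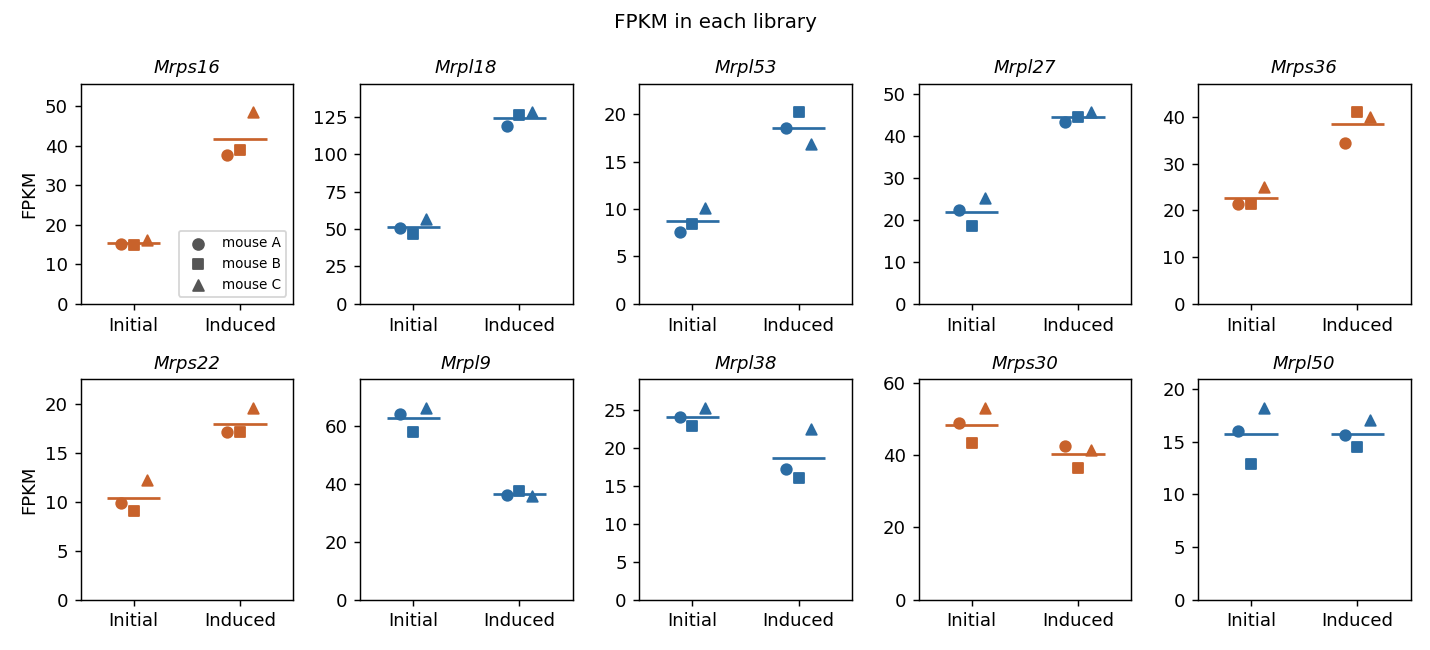
FPKM (y axis, from 0) of 10 genes in each library, with Initial on the left and Induced on the right of each panel, symbols for mice and lines for group means. Blue marks Mrpl and orange Mrps genes. Mrps16, Mrpl18, Mrpl53, Mrpl27, Mrps36 and Mrps22 are higher in all Induced libraries, Mrpl9, Mrpl38 and Mrps30 are lower in all of them, and Mrpl50 overlaps.

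The stalk of the large subunit, which recruits translation factors, is built from the proteins of Mrpl10, Mrpl11 and Mrpl12. Mrpl12 (ENSMUSG00000039640, chromosome 11, 120484613 to 120489065) was at 29.6, 26.5 and 35.3 FPKM in Initial and 41.6, 39.2 and 48.3 FPKM in Induced A, B and C. It rose by 0.49 on the log2 scale (SE 0.12, limma adjusted p = 0.00674), with mouse C highest in both groups. Mrpl10 rose less, from 44.5 ± 0.623 to 53.7 ± 1.29 FPKM (0.26), and Mrpl11, at 5.00 ± 0.613 and 6.07 ± 0.253 FPKM, did not pass the test (adjusted p = 0.0699). These genes and the next are given for their place in the particle. At the tunnel through which new chains leave, Mrpl44 and Mrpl45 rose by 0.87 and 0.84 and Mrpl39 by 0.52, while Mrpl23 and Mrpl24 had values of 0.10 and -0.08 and overlapping groups. Mrpl45 helps to hold the ribosome at the inner membrane.

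Of the 3 large subunit genes with the highest mean levels, 2 rose and the other did not pass the test. Mrpl18 led with a mean of 87.9 FPKM over the 6 libraries. Mrpl13 (ENSMUSG00000022370, chromosome 15, 55534094 to 55557748) was next, at 37.5, 39.1 and 43.4 FPKM in Initial and 68.2, 63.3 and 70.7 FPKM in Induced A, B and C. It rose by 0.74 (SE 0.08, limma adjusted p = 6.55e-05), and the overlapping opposite-strand gene Mtbp went from 4.14 ± 0.750 to 16.7 ± 0.420 FPKM. Mrpl4 (ENSMUSG00000003299, chromosome 9, 21002738 to 21008839) was at 49.2, 47.9 and 54.0 FPKM in Initial and 53.7, 59.0 and 57.6 FPKM in Induced A, B and C. The groups of Mrpl4 overlapped and it did not pass the test (0.17, adjusted p = 0.0636). It passed without Initial C (adjusted p = 0.0284) and with scaling to the CD3 chains and Trdc or to T cell identity genes (0.39 and 0.76).

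Among the large subunit genes Mrpl50, Mrpl21 and Mrpl54 lay nearest to 0. Mrpl50 (ENSMUSG00000044018, chromosome 4, 49512596 to 49521093) was at 16, 12.9 and 18.2 FPKM in Initial and 15.6, 14.5 and 17.1 FPKM in Induced A, B and C, which is 0.01 (SE 0.12) on the log2 scale. Mrpl21 was at 34.1 ± 5.06 and 33.7 ± 4.93 FPKM and Mrpl54 at 32.4 ± 3.01 and 31.0 ± 0.822 FPKM, all with overlapping groups. On the log2 scale they differed by -0.02 (SE 0.13) and -0.06 (SE 0.08). Mrpl32, whose protein is processed by a protease of the inner membrane before assembly, was lower in every Induced library without passing the test (41.3, 38.8 and 50.9 against 37.4, 33.7 and 37.0 FPKM, -0.26, limma adjusted p = 0.0527). Mrpl30 was lower in each mouse, at 48.8 ± 7.29 and 38.6 ± 6.99 FPKM, but its groups overlapped (-0.34, adjusted p = 0.0707). Mrpl32 and Mrpl30 were chosen here after their values were seen. Both would be called lower with the mouse as a block, scaling of the TMM kind, a common sum or quantile normalization. With scaling to the CD3 chains and Trdc they were at -0.04 and -0.11 and not called. With scaling to T cell identity genes they turned to 0.32 and 0.25.

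In the small subunit the rises after Mrps16 were close to each other in size. Mrps36 (ENSMUSG00000061474, chromosome 13, 100735955 to 100744659) was at 21.3, 21.3 and 25.1 FPKM in Initial and 34.4, 41.0 and 40.1 FPKM in Induced A, B and C. Mrps22 (ENSMUSG00000032459, chromosome 9, 98588730 to 98601660), a mitochondrion-specific gene mutated in human respiratory chain disease, was at 9.92, 9.08 and 12.2 FPKM in Initial and 17.2, 17.2 and 19.6 FPKM in Induced A, B and C. Mrps12 (ENSMUSG00000045948, chromosome 7, 28739641 to 28741820), for a protein of the decoding centre, was at 21.9, 21.9 and 27.2 FPKM in Initial and 37.4, 42.0 and 40.5 FPKM in Induced A, B and C. None of these 3 genes had overlapping groups, and they rose by 0.75 (SE 0.10), 0.74 (SE 0.11) and 0.74 (SE 0.10) on the log2 scale, with limma adjusted p of 0.000222, 0.000596 and 0.000258. Mrps17 (ENSMUSG00000034211, chromosome 5, 129715497 to 129722556), a bacterial homologue, was at 26.3, 27.7 and 36.2 FPKM in Initial and 51.5, 48.3 and 51 FPKM in Induced A, B and C, a rise of 0.73 (SE 0.12, adjusted p = 0.000681).

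The highest levels in the small subunit belonged to Mrps33, Mrps15 and Mrps23. Mrps33 (ENSMUSG00000029918, chromosome 6, 39801804 to 39810988) was at 44.2, 44.0 and 52.9 FPKM in Initial and 73.8, 70.2 and 71.5 FPKM in Induced A, B and C, and rose by 0.61 (SE 0.08, limma adjusted p = 0.000309). Mrps15 (ENSMUSG00000028861, chromosome 4, 126046925 to 126055532) was at 45.7, 39.1 and 58.2 FPKM in Initial and 55.2, 53.2 and 65 FPKM in Induced A, B and C. The groups overlapped through Initial C, and it did not pass the test (0.29, adjusted p = 0.115). It passed with the mouse as a block, without Initial C (adjusted p = 0.0141 and 0.0123) and with scaling to the CD3 chains and Trdc or to T cell identity genes (0.51 and 0.88). Mrps23, at 48.5 ± 4.00 and 53.2 ± 2.57 FPKM, did not pass either (0.13, adjusted p = 0.162), but did without Initial C (adjusted p = 0.0443) and with both scalings (0.35 and 0.72). Mrps31, at 11.4 ± 0.932 and 11.8 ± 1.12 FPKM, and Mrps24, at 34.3 ± 7.19 and 36.2 ± 3.21 FPKM, were with Mrps23 the small subunit genes nearest to 0 (0.05 and 0.09). Mrps24 shares exons on the same strand with Urgcp.

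A trio of genes descends from the bacterial S18 protein. Mrps18c (ENSMUSG00000016833, chromosome 5, 100798627 to 100804471), which encodes the counterpart of the bacterial protein, was at 20.1, 16.1 and 24.2 FPKM in Initial and 25.9, 28.1 and 32.2 FPKM in Induced A, B and C. Mrps18a (ENSMUSG00000023967, chromosome 17, 46110986 to 46128910), with its protein in the large subunit, was at 28.1, 30.5 and 30.5 FPKM in Initial and 37.4, 35.6 and 35.6 FPKM in Induced A, B and C. Both rose without overlap of the groups, by 0.50 (SE 0.15, limma adjusted p = 0.015) and 0.28 (SE 0.07, adjusted p = 0.00556). Mrps18b (ENSMUSG00000024436, chromosome 17, 35910379 to 35916389), whose protein sits elsewhere in the small subunit, was at 25.3, 24.2 and 28.4 FPKM in Initial and 32.1, 27.1 and 39.0 FPKM in Induced A, B and C. Induced B fell among the Initial values, and Mrps18b did not pass the test (0.31, adjusted p = 0.0617). It passed with the mouse as a block, without Induced B (adjusted p = 0.0125 and 0.0133) and with scaling to the CD3 chains and Trdc or to T cell identity genes (0.53 and 0.90). Mrps18c shares exons on the same strand with the predicted gene Gm43511.

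Genes with and without bacterial homologues both rose. Of 45 genes with a bacterial homologue 31 (68.9%) rose and 1 fell (median 0.40). Of 30 mitochondrion-specific genes 17 (56.7%) rose and 2 fell (median 0.36), where 37.3 and 33.1% of all tested genes rose and fell. Mrps18a, Mrps18b and Mrps36 were placed in neither class. In the small subunit, 12 of 15 genes with a homologue (80.0%) rose and 0 fell (median 0.50). Of 11 mitochondrion-specific genes there, 5 (45.5%) rose and 1 fell (median 0.31). In the large subunit the medians stood the other way round, at 0.38 over 30 genes with a homologue and 0.47 over 19 without. These medians are descriptions, with no test between the classes. The genes lie on 17 chromosomes, with at most 11 on any of them. Exons of 19 members overlap an expressed gene on the other strand and those of 4 members one on the same strand. Mrpl46 and Mrps11 overlap each other.

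Levels of the members also varied together within a group. In the Initial group 69 of the 78 genes were highest in library C, and in the Induced group 50 of 78, where 39.3 and 45.3% of all tested genes were. The median coefficient of variation of the members was 9.82% in Initial and 6.42% in Induced libraries, and 9.10 and 8.54% over all tested genes. Without Initial C, 53 members rose and 1 fell, where 36.4 and 30.7% of all tested genes rose and fell.

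Genes that act with the mitochondrial ribosome were followed by lists. Of 5 further subunits with other names, 4 rose, led by Chchd1 (24.0 ± 4.53 to 37.9 ± 4.05 FPKM, 0.65) and Ptcd3 (0.33). Dap3, for a GTP-binding protein of the small subunit, was at 41.1 ± 1.67 and 39.6 ± 3.26 FPKM and did not pass the test. Of 26 assembly genes 13 (50%) rose and 4 (15.4%) fell, with a median of 0.25, where 37.3 and 33.1% of all tested genes rose and fell. The ribosomal RNA methyltransferase gene Mrm2 went from 2.93 ± 0.674 to 7.40 ± 0.508 FPKM (1.11, limma adjusted p = 0.000161) and the helicase gene Ddx28 from 9.54 ± 1.27 to 19.4 ± 1.25 FPKM (0.95, adjusted p = 7.62e-05). Malsu1, whose protein binds the large subunit during assembly, fell from 8.78 ± 1.41 to 4.85 ± 0.744 FPKM (-0.74, adjusted p = 0.00181), and the methyltransferase gene Nsun4 from 9.28 ± 0.271 to 6.13 ± 0.329 FPKM (-0.53, adjusted p = 0.000607). With scaling to T cell identity genes both calls were lost, at -0.22 (adjusted p = 0.137) and 0.00 (adjusted p = 0.976). Ybey, counted among the 13, passed the filter on low values through its Induced libraries alone. Of 15 translation factor genes 9 (60.0%) rose and 1 (6.67%) fell, with a median of 0.38. The translational activator gene Taco1 rose by 0.85 and the elongation factor gene Tsfm from 16.8 ± 1.81 to 28.8 ± 1.84 FPKM (0.75, adjusted p = 0.000183), and Letm1, for an inner membrane protein, fell by 0.26 but turned to 0.32 with scaling to T cell identity genes.

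Genes of mitochondrial RNA synthesis and stability, listed together with the DNA replication genes Polg, Polg2, Twnk and Ssbp1, did not move one way. Of 23, 6 (26.1%) rose and 7 (30.4%) fell, with a median of 0.02, where 37.3 and 33.1% of all tested genes rose and fell. Tefm, for the transcription elongation factor, rose from 5.85 ± 0.919 to 10.6 ± 1.08 FPKM (0.77) and Fastkd3 from 7.28 ± 1.14 to 13.0 ± 0.712 FPKM (0.76). Polg2, for the accessory subunit of the mitochondrial DNA polymerase, was at 23.9, 22.6 and 20.3 FPKM in Initial and 5.52, 5.03 and 5.72 FPKM in Induced A, B and C, and so fell, with a log2 value of -1.86 (SE 0.09, limma adjusted p = 1.03e-06). 1110008L16Rik fell by 0.66. Of the 13 protein-coding transcripts of the mitochondrial genome, 2 (15.4%) rose and 4 (30.8%) fell, with a median of -0.08. The shares over all tested genes were 37.3 and 33.1%. Transcript levels of mt-Co1 went from 755 ± 44.2 to 1050 ± 11.3 FPKM (0.47) and of mt-Nd5 from 127 ± 12.8 to 152 ± 4.10 FPKM (0.25, adjusted p = 0.0224, and 0.0522 to 0.0749 without Induced A, Induced B, Initial A or Initial B). Those of mt-Atp8 fell from 72.5 ± 14.7 to 42.3 ± 6.53 FPKM (-0.76) and of mt-Nd2 from 96.6 ± 9.14 to 72.6 ± 1.54 FPKM (-0.40). With scaling to T cell identity genes mt-Atp8 and 1110008L16Rik lost their calls (-0.16 and -0.13, adjusted p = 0.323 and 0.431), mt-Nd2 turned to 0.19, and the medians were 0.56 for the RNA synthesis and 0.51 for the mitochondrially encoded list, near the 0.57 of all tested genes. The call of mt-Nd2 was also lost with scaling to the CD3 chains and Trdc (-0.18, adjusted p = 0.0711).

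The members were set beside the genes of the cytosolic ribosome and of respiratory complex I, whose core holds subunits made on mitochondrial ribosomes. Of 78 cytosolic ribosomal protein genes tested 0 rose and 28 fell, or 35.9%, near the 33.1% of all tested genes that fell, with a median of -0.30. The number that fell was 8 without Induced A or Induced B, 10 without Initial C, 16 without Initial A, 40 without Initial B and 44 without Induced C. It was 11 without a filter, 39 with scaling of the TMM kind and 57 with the mouse as a block. Of all tested genes 17.9, 35.8 and 33.3% fell in those fits, in that order, and 29.3 to 34.2% with 1 library left out. With scaling to the CD3 chains and Trdc, 3 rose and 6 fell (median -0.09), where 47.8 and 23.7% of all tested genes rose and fell. With scaling to T cell identity genes, 39 rose and 1 fell, against 64.6 and 15.9% of all tested genes. The cytosolic median then turned to 0.28, below the 0.57 of all tested genes and the 0.96 and 0.93 of Mrpl and Mrps. Of 37 nuclear complex I genes 24 (64.9%) rose and 0 fell, against 37.3 and 33.1% of all tested genes. Their median was 0.31, close to that of the mitochondrial ribosomal protein genes.

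**Figure D4:**
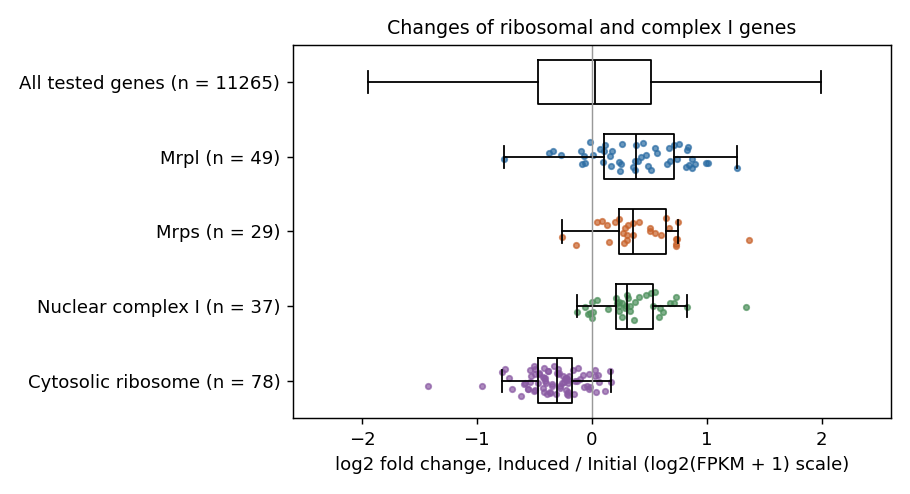
Log2 fold changes (x axis, log2(FPKM + 1) scale) of all 11265 tested genes, the Mrpl and Mrps members, the nuclear complex I genes and the cytosolic ribosomal protein genes. Boxes span the quartiles with a line at the median, whiskers reach the farthest value within 1.5 box lengths, and points are genes. Medians are 0.38 for Mrpl, 0.36 for Mrps, 0.31 for complex I, -0.30 for the cytosolic ribosome (0.28 with scaling to T cell identity genes) and 0.03 for all tested genes.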

How the data were processed

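Messenger RNA of 3 Initial and 3 Induced libraries was analysed, grouped by the sample titles. Per the labels' protocols, the authors made libraries with the VAHTS mRNA-seq v2 kit, sequenced them on an Illumina instrument and computed FPKM with Cuffdiff. The submitters' processing notes name CASAVA, HISAT2 2.0.5, Cuffdiff 1.3.0 and 2.2.1, and the build mm9. Yet 90.72% of the deposited loci hold the span of the gene in GRCm38 (GENCODE M21), among them 66 of the 78 members, so positions are from that annotation. The labels do not state how strand was handled. A gene without a row was taken as 0. The deposited FPKM values are not counts, so they were tested on the log2(FPKM + 1) scale by limma 3.58.1 under R 4.3.3 (trend, robust, two-sided, no block). The filter asked for FPKM of 1 or more in 3 or more libraries, which 11265 of 26771 genes passed. Fold changes of low genes are understated on this scale. Adjusted p-values are Benjamini-Hochberg over those genes. Errors are SDs over 3 libraries. The test was checked on simulated data.

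Depth was estimated from the steps of low values, of which 42.1 to 45.5% lay within 0.15 of a whole multiple (30% by chance), so it is rough. At the lowest estimated depth of a member (Mrpl53, 122 fragments) counting gives a coefficient of variation of 9.05%, which covers counting error only. The labels name the same mice in both groups, so letters pair libraries by animal; deviations from group means correlated at 0.039, 0.031 and 0.131 for mice A, B and C and at -0.132 to 0.099 between different mice.

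The members and lists were chosen with earlier results of these data known. Named members are the 5 largest rises and falls per subunit among those called, the 3 highest in mean FPKM, the 3 nearest to a fold change of 0, and Mrps18a, Mrps18b, Mrps18c, Mrps30, Mrps36 and Mrpl12. From each other list the 2 largest rises and falls among called genes are named. Outside this rule, stalk and exit tunnel genes, Mrpl30, Mrpl32 and Dap3 are given, chosen after their values were seen. Alternatives covered pseudocount, filter, scaling (T cell identity genes; CD3 chains and Trdc), moderation, the mouse as a block, subunit assignment and leaving out each library. Figures were made with Python 3.11.15 and matplotlib 3.10.9.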

Additional observations from a re-analysis of the deposited data

Results flagged for a closer look

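A pseudogene row outside the measured gene set was listed in the Induced group alone, at values near the floor. Mrps36-ps2, a pseudogene of Mrps36 by its name, was listed at 0.269, 0.397 and 0.199 FPKM in Induced A, B and C. No Initial library listed it. The values lie below the filter of FPKM 1, so a difference between the groups was not tested. Mrps36 itself went from 22.5 ± 2.2 to 38.5 ± 3.57 FPKM. Fragments of a gene and a near-identical copy may be assigned to either, and whether that occurred here was not tested. The other pseudogene rows did not separate the groups: Mrpl23-ps1 was at 0.748, 1.01 and 1.54 FPKM in Initial and 0.710, 0.645 and 1.06 FPKM in Induced A, B and C, and Mrpl48-ps and Mrps36-ps1 were listed in 1 library each.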

How the results depend on the processing

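The number of members that rose stayed between 44 and 64 except with scaling to T cell identity genes, where 75 rose. Of all tested genes 64.6% rose with that scaling, and 47.8% with scaling to the CD3 chains and Trdc, where 64 members did. Without a filter 16.4% of all genes rose, and 45 members. In the other settings 33.8 to 40.0% of all tested genes rose. The number that fell, 3, was 5 with scaling of the TMM kind, with a common sum, with quantile normalization and with the mouse as a replicate block (53 rose), 1 without a filter or with scaling to the CD3 chains and Trdc, 0 with scaling to T cell identity genes, and 1 to 4 with 1 library left out. Over these settings 15.9 to 35.8% of all tested genes fell. The Mrps median was 0.31 with TMM-like scaling and with quantile normalization. With a pseudocount of 5 the Mrpl and Mrps medians were 0.31 and 0.30, with scaling to the CD3 chains and Trdc 0.59 and 0.57, and with scaling to T cell identity genes 0.96 and 0.93. These last scalings moved the median of all tested genes to 0.23 and 0.57. Members lay 0.28 to 0.40 above that median in every setting run. With 1 library left out the Mrps median was 0.29 to 0.46. With scaling to T cell identity genes the sign turned for 10 of the 11 members below 0, among the named ones Mrpl38 (0.21, limma adjusted p = 0.0718), Mrpl21 (0.57), Mrpl54 (0.53) and Mrps30 (0.33), and Mrpl9 was at -0.18 (adjusted p = 0.121). The T cell identity genes were themselves lower after culture (12 of 20 called), which by construction lifts the other genes. Assigned by position, the mean ratio of small to large subunit sums, over genes with Mrpl and Mrps names alone, was 0.467 in Initial and 0.490 in Induced libraries. Over the 27 named members, 423 of 459 results kept their call. In 10 of these, all of Mrpl21, Mrpl50, Mrpl54 or Mrps24, none of them called, the sign of the rounded value turned. Values that round to 0 are not counted there, such as Mrps31 at -0.0 with scaling of the TMM kind. The call of 9 members was lost without 1 library, among them Mrpl46, Mrpl35, Mrpl22, Mrpl48, Mrpl55, Mrps7 and Mrps27, which rose with all 6. Other causes were not tested. Depth limits the shortest and lowest members most, and FPKM without counts gives no exact interval.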

Other observations

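Of the members, 18 start within 1000 bp of an oppositely oriented tested gene, and the gene pairs did not always share a direction. Mrpl36 and its neighbour Ndufs6, a complex I gene, had log2 fold changes of 0.43 and 0.60. Exons of that pair overlap on opposite strands, so fragments may have been counted for both. Mrps12 and the mitochondrial seryl-tRNA synthetase gene Sars2 had 0.74 and 0.59. Mrpl51 lay beside the condensin gene Ncapd2 (0.76 and 2.6) and Mrpl57 beside the kinetochore gene Ska3 (0.47 and 3.13), which went from 2.04 ± 0.197 to 25.6 ± 2.38 FPKM. Mrpl30 and Mitd1 had opposite signs (-0.34 and 0.76), as had Mrpl32 and the proteasome gene Psma2 (-0.26 and 0.49). Mrpl49 lay beside Fau, for a cytosolic ribosomal protein (0.87 and -0.27, the latter not passing the test with a limma adjusted p of 0.189). These pairs were picked after their values were seen.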
